A study of Mus musculus with 12 samples.

Results

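The transcripts described here are multi-exon RNAs of the mouse testis that lay outside every RefSeq gene used by the authors. A member is a transcript of class u (the assembler's code for intergenic, with no overlap with the reference annotation), longer than 200 nt and with 2 or more exons in the assemblies. The rule gave 5540 member transcripts among 71967 transcripts of the series, and their reads were also summed over 2939 member loci among 29329 genes and loci. A locus is the set of overlapping transcripts that the assembler gave 1 number, such as MSTRG.13243. The deposited table held 7594 transcripts of class u in all, of which 2054 had a single exon.

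Testes of wild-type C57BL/6 males, an inbred laboratory strain, were sequenced at 3, 6, 12 and 18 months (3M, 6M, 12M and 18M), with 3 mice and 3 libraries per age. All libraries were made from total RNA depleted of ribosomal RNA, without strand information, from animals that received no treatment. The labels and methods do not say which mice were littermates or which libraries were made together, so p-values measure the spread between these mice. The libraries held 50924104 to 71803379 estimated reads. Libraries are named by age and mouse, so that 3M-2 is the second 3M mouse.

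Intergenic transcripts are common in the testis, where spermatocytes and round spermatids have open chromatin and transcribe much of the genome outside known genes. Many such transcripts are long non-coding RNAs, while others are unannotated extensions, pseudogenes, or coding genes that a given annotation lacks. The testis also expresses large families of recently duplicated genes, on the sex chromosomes in particular, whose copies are hard to tell apart by sequencing.

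Part of the members were already gene models in another annotation of the same build. Set beside GENCODE vM21 (mm10, GRCm38), 491 members (8.86%) had exactly the introns of a GENCODE transcript, 1680 (30.3%) shared at least 1 intron with one, and 1028 (18.6%) overlapped an exon on the same strand without a shared intron. A further 386 (6.97%) overlapped a GENCODE exon only on the opposite strand, 315 (5.69%) lay inside a gene span without touching an exon, and 1640 (29.6%) overlapped no GENCODE gene. The label unannotated therefore held for all members against the RefSeq set of the authors, and against GENCODE for those without an overlap. Gene spans of a later RefSeq table (GRCm38.p6), taken on either strand, overlapped 4210 members (76.0%). Spans of its protein-coding genes overlapped 1324 members. Such an overlap does not require a shared exon. Among the members over an exon of the same strand, 1319 overlapped a lincRNA gene, 747 a pseudogene and 741 a protein-coding gene. Members with the introns of a GENCODE transcript took 14.0% of all member reads, those that shared an intron took 37.0%, and those with no overlap took 19.2%. Median levels were alike across these kinds, from 1.02 FPKM (fragments per kilobase of transcript, scaled to the mapped fragments of the library) for members opposite to a GENCODE exon to 1.59 FPKM for members with the same introns.

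**Figure D1:**
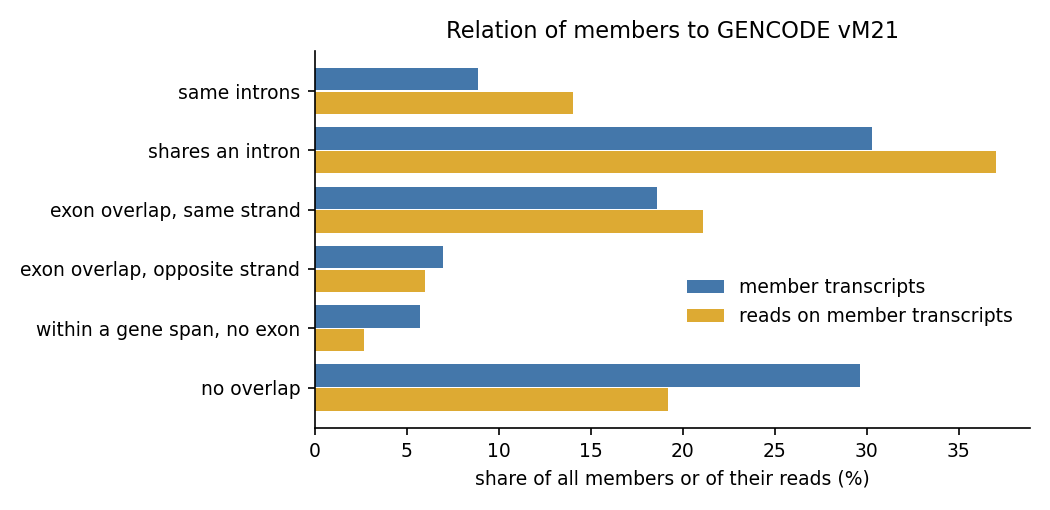
The horizontal axis gives, in percent, the share of the 5540 members (blue) and of their reads (yellow) for each relation to GENCODE vM21, which is named on the vertical axis. Members that shared an intron were the most frequent kind, with 30.3% of members and 37.0% of reads, and members without overlap held 29.6% and 19.2%.

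The sequences below stand for members whose introns GENCODE holds in full. Each line gives 60 bases of the spliced RNA, 30 from the exon before an intron in lower case and 30 from the exon after it in capitals, so the change of case marks the splice junction. The sequences are those of the GENCODE vM21 transcripts, and for coding genes both sides are coding sequence. The first 3 belong to the highest members of this kind, the fourth to a locus with a slope on age and the fifth to a high X-linked member.

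Ms4a14, intron at chr19:11312420-11314195, minus strand: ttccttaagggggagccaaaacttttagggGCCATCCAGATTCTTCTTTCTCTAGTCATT
4930449C09Rik, intron at chr15:63718461-63721775, plus strand: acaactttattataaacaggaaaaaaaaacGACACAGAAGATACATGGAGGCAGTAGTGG
Gm11634, intron at chr11:101595735-101599095, minus strand: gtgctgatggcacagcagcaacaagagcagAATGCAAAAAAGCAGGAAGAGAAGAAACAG
Gm16867, intron at chr14:69465012-69502981, minus strand: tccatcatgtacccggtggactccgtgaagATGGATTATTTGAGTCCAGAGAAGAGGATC
Gm28269, intron at chrX:21743802-21744900, minus strand: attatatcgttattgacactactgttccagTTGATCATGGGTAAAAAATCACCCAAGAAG

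The next 3 members, of the locus MSTRG.5839 on chromosome 14, are shown because they are near-identical copies. The 60 bases of Gm3476 and Gm8362 differed at 0 positions, and those of Gm3685 differed from either at 2 positions.

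Gm3476, intron at chr14:6124896-6125612, minus strand: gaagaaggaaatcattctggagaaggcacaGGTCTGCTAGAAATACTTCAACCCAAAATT
Gm8362, intron at chr14:6773491-6774218, minus strand: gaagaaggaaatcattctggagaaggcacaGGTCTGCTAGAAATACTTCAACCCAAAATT
Gm3685, intron at chr14:7044047-7044777, minus strand: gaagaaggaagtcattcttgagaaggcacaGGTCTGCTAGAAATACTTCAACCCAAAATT

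For Gm10251 of the same locus, the stretch taken lay around intron 3, against intron 1 in the copies above. Its 60 bases differed from each of theirs at 50 positions, which does not compare corresponding parts of the genes. Levels of the near-identical copies are uncertain where reads fall in stretches they share, and how far reads were split among copies was not tested.

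Members were shorter than RefSeq mRNAs (NM_ identifiers) and had fewer exons. Their median length was 1385 nt (quartiles 793 and 2642 nt, range 205 to 48943 nt), against 2565 nt in the mRNAs. It was 956.5 nt in RefSeq non-coding RNAs, 955 nt in antisense, 1159 nt in intronic and 1127.5 nt in single-exon class u transcripts. The median number of exons was 3 in members, in RefSeq non-coding RNAs and in antisense transcripts, 2 in intronic transcripts and 8 in the mRNAs. There were 1982 members (35.8%) with exactly 2 exons, against 33.5% of intronic and 30.3% of antisense transcripts. The share was 8.52% of RefSeq non-coding RNAs and 5.69% of the mRNAs. There were 385 members with 10 or more exons. They were split evenly between the strands, with 2779 on the plus and 2761 on the minus strand. A single member made up 1910 loci, 2 members made up 550 loci, and 479 loci held 3 or more. In 375 loci, transcripts that are not members lay in the same locus, and in 122 of them a RefSeq transcript did.

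The members with the most exons followed known coding genes. MSTRG.20546.1 (chr9:18495385-18617657), with 78 exons in 7623 nt, shared introns with Muc16, a mucin gene. Its level was 13.2, 13.0 and 17.0 CPM (reads scaled to a common library size after TMM normalization) at 3M and 14.9, 10.2 and 14.0 CPM at 18M, so that the ages overlapped. MSTRG.6009.4, with 76 exons, and MSTRG.6009.1, with 75, followed Dnah12, a heavy chain of axonemal dynein, in a locus on chromosome 14. MSTRG.6009.1 was at 0.118 CPM in 6M-2 and 147 CPM in 6M-1, whereas the 9 members of the locus together gave 144 to 178 CPM at 6M, so the transcript varied far more between mice of 1 age than its locus did. The longest member, MSTRG.9312.1 with 48943 nt in 2 exons (overlapping CT025671.4), had 109 ± 8.28 CPM (SD, n = 3) at 3M and 110 ± 2.05 CPM at 18M. The next longest, MSTRG.6187.4 (31709 nt) and MSTRG.6187.2 (28781 nt), had means of 23.5 and 4.24 CPM at 3M and of 19.9 and 1.05 CPM at 18M, with adjusted p = 0.98 and 0.91.

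Members were unevenly spread over the chromosomes. Chromosome 14 held 483 members (8.72%, against 3.56% of the mRNAs), chromosome 5 held 453 (8.18%, against 5.91%) and chromosome 8 held 435 (7.85%, against 4.54%). The Y chromosome held 174 members (3.14%, against 0.386% of the mRNAs) in 117 loci, and the X chromosome 142 (2.56%, against 4.80%) in 95 loci. On the Y chromosome, 3.45% of the members lacked any GENCODE exon on either strand, against 52.9% on chromosome 18. The densest stretch of 5000000 bp lay on chromosome 8, between 20000001 and 25000000, with 136 members in 15 loci. Most of these belonged to MSTRG.19417, which held 80 members, the most of any locus. MSTRG.5839 held 35, and MSTRG.21231 on chromosome 9 was among the loci with 32.

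Some members began close to a coding gene in the opposite direction, as divergent transcripts from a shared promoter region do. The nearest RefSeq mRNA start lay a median of 64137 bp away, and for 2099 members more than 100 kb away. A start within 1000 bp of the nearest mRNA start, on the opposite strand, was found for 533 members (9.62%) in 329 loci. The share was 32.1% in antisense transcripts (class x, exons opposite to a RefSeq exon), 12.0% in RefSeq non-coding RNAs (NR_ identifiers), 6.18% in single-exon transcripts of class u and 3.96% in intronic transcripts (class i). The count did not ask whether the transcript and the mRNA overlap. Transcripts of class x overlap a RefSeq exon by definition, so their share can include overlapping pairs, unlike that of class u. The highest of the divergent loci, MSTRG.1491, began 205 bp from Fig4, which codes for a phosphoinositide phosphatase. From the youngest to the oldest age it had means of 115, 115, 106 and 103 CPM, and Fig4 had means of 28.3, 25.9, 23.9 and 22.9 CPM. MSTRG.17545 began 39 bp from Atf7ip, a cofactor of the histone methyltransferase Setdb1, and had means of 14.3 CPM at 3M and 13.2 CPM at 18M.

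For 920 members in 464 loci, the gene start of a RefSeq promoter window (250 bases before to 50 after the start, GRCm38.p6) lay within 50 bp of the start of the member, on the same strand. The 473 windows so matched were poorer in CpG than the 32851 windows of all genes, with a median ratio of observed to expected CpG of 0.216 against 0.384. The letters GGGCGG (the GC box, bound by Sp1) stood on either strand in 14.8% of the matched windows and in 35.7% of all windows. CCGGAA (the core of ETS sites) stood in 9.94% against 14.9%, and TGACG (a core of sites of CREM, a regulator of spermatid genes) in 16.3% against 20.8%. AACTG (a core of MYB sites, read by the meiotic factor MYBL1) stood in 52.6% against 44.8%, GTTGCC (a core of RFX sites) in 18.2% against 12.5%, CCAAT in 41.9% against 37.4% and TATAAA in 14.2% against 13.6%. AACTG, read on the opposite strand as CAGTT, and GTTGCC can overlap. These shares describe letters, and binding was not measured.

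The windows of Ms4a14 (one of the 5 highest loci), Gm32471 (at MSTRG.13243, the locus with the largest called change between 3M and 18M) and Gm38514 (at MSTRG.3948, with a slope on age, shown after its values were seen) are printed 5′ to 3′ on the strand of the transcript. Capitals mark any of the 7 sets of letters on either strand. For the coding gene Ms4a14 the 250 bases before the start are given, and in the corresponding bases of Acte1 and Iqcn, 2 other genes among the 5 highest loci, none of the letters was found.

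Ms4a14, chr19:11314455-11314704, minus strand: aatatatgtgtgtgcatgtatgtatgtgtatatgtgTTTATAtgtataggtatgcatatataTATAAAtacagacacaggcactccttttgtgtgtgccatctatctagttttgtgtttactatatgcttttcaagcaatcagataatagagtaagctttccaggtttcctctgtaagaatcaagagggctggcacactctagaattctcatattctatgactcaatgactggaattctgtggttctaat
Gm32471, chr3:100417687-100417986, plus strand: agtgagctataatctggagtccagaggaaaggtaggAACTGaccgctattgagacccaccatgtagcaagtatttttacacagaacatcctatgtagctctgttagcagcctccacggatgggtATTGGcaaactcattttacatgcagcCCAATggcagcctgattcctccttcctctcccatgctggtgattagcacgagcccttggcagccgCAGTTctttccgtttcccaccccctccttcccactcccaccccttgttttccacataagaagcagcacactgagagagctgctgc
Gm38514, chr11:118137726-118138025, minus strand: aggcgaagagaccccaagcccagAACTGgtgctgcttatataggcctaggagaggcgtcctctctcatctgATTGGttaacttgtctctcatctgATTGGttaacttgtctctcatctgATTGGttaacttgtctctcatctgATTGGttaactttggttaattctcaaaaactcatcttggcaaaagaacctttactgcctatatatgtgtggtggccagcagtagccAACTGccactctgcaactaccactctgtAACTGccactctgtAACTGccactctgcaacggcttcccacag

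The Gm32471 window held 2 CCAAT matches and 2 AACTG matches, and MSTRG.13243.2 began 41 bp from its start site. The Gm38514 window held 4 matches to CCAAT, all on the opposite strand and in a run of near-identical repeats, and it held 4 matches to AACTG.

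Members were expressed at low levels that exceeded those of the median RefSeq transcript. The median over members was 1.18 FPKM (mean of the 12 libraries, quartiles 0.645 and 1.82), against 1.09 in single-exon class u, 1.31 in class x, 1.18 in class i, 0.124 in NR_ and 0.508 in NM_ transcripts. The assembled classes hold what was found in these libraries, while the RefSeq classes hold every annotated transcript, found or not: 1 of the 5540 members had no read in any library, against 9.99% of the mRNAs. A mean of 1 FPKM or more was reached by 3317 members (59.9%), and 10 FPKM or more by 82 members and 136 loci. A read in all 12 libraries was found for 4022 members and 2647 loci. Members took 2.41% to 3.06% of the reads of a library. In 6M-2, which had the highest share, 18.9% of the member reads came from the 9 mitochondrial members, and without these the share over all libraries was 2.41% to 2.65%. The mean was then 2.47% in 3M, 2.5% in 6M, 2.57% in 12M and 2.54% in 18M mice.

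Level was concentrated in few loci: the 10 highest held 11.5% of the summed FPKM, and 100 loci held 48.7% of all member reads. The highest was MSTRG.4082 (chr12:8478833-8482234, minus strand, nearest mRNA start Rhob, 17751 bp away), which shared an intron with the transcribed pseudogene BC106175. It ranged from 325 to 379 FPKM with a median of 346. MSTRG.21662 (chrM:25-16297, over mitochondrial tRNA genes), which the assembler placed on the minus strand, ranged from 0 in 3M-2 to 519 FPKM in 6M-2, with a median of 105. The libraries hold no strand information, and whether RNA of this locus is spliced was not tested. Coding genes in GENCODE made up much of the remainder. Ms4a14 (MSTRG.10383, a gene of the membrane-spanning 4A family) ranged from 89.2 to 127 FPKM, Gm498 (MSTRG.19254, named Acte1 in the RefSeq table, an actin) from 84.0 to 105, Iqcn (MSTRG.19785, coding for a protein with IQ motifs) from 73.3 to 103, Vwa3b (MSTRG.181, von Willebrand factor A domain) from 70.2 to 102, and Gm11634 (MSTRG.3657) from 45.6 to 72.5. The lincRNA 4930449C09Rik (MSTRG.7108) was the steadiest of the 10 by range, from 86.2 to 91.9 FPKM. MSTRG.19417 ranged from 67.3 to 107 FPKM, and the highest of its 80 members overlapped no GENCODE gene. MSTRG.5639 (chr13:98237570-98245459, nearest mRNA start Utp15, a ribosome biogenesis factor, 17533 bp away) overlapped no GENCODE gene and ranged from 55.2 to 86.8 FPKM. None of these 10 loci was called in the slope on age or in any of the 4 comparisons of ages by edgeR. Within 6M alone the mitochondrial locus ranged from 36.7 to 5850 CPM.

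The highest X-linked loci were MSTRG.22132 (over the pseudogene Gm9059, 33.6 to 48.4 FPKM), MSTRG.22349 (no GENCODE overlap of its highest member, at the RefSeq gene Gm20153, 33.5 to 41.8 FPKM) and MSTRG.21785 (Gm28269, 27.0 to 42.3 FPKM). The highest Y-linked loci lay over unprocessed pseudogenes and were lower. MSTRG.22486 (Gm20775) ranged from 0 to 6.98 FPKM, MSTRG.22531 (Gm21924) from 3.67 to 4.98 and MSTRG.22503 (Gm21678) from 3.33 to 5.52. The nearest mRNA start to MSTRG.22503, 655572 bp away, is that of Ssty1, a multicopy gene of spermatids. MSTRG.22486 had 15.3 to 17.2 CPM in the libraries other than 6M-1 and 6M-2, where it was at 0 and 5.27 CPM.

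Most member loci stood slightly higher in 18M than in 3M testes, while single loci rarely passed the test. Over the 2800 member loci tested, the log2 change had a median of 0.119, and 69.8% were higher at 18M. Over all 22760 genes and loci tested, the median was 0.0033 and 50.7% were higher. For transcripts, the medians were 0.107 in members, 0.0839 in class i, 0.0763 in class x, 0.0348 in single-exon class u, 0.0423 in NR_ and -0.0364 in NM_ transcripts, so the members had the highest median of these classes and the mRNAs lay below zero. The share higher at 18M was nearly alike in members (61.7%), class i (61.3%) and class x (59.9%). It was 55.7% in single-exon class u, 55.9% in NR_ and 44.6% in NM_ transcripts. All 3 mice of 18M lay above all 3 of 3M in 400 member loci (14.3%, against 9.27% of all genes and loci) and below them in 96 (3.43%, against 10.6%). No test was made on the members as a set. Members were assembled from these same libraries, which held 52537887 to 57957440 reads at 3M and 52641137 to 71803379 at 18M. Any effect of this on the change was not tested. By step, the median was 0.016 from 3M to 6M, 0.074 from 6M to 12M and 0.0093 from 12M to 18M. The placing of the step rested on 12M-3, without which the median was 0.015 from 6M to 12M and 0.072 from 12M to 18M. From 3M to 6M it was -0.012 without 3M-2.

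**Figure D2:**
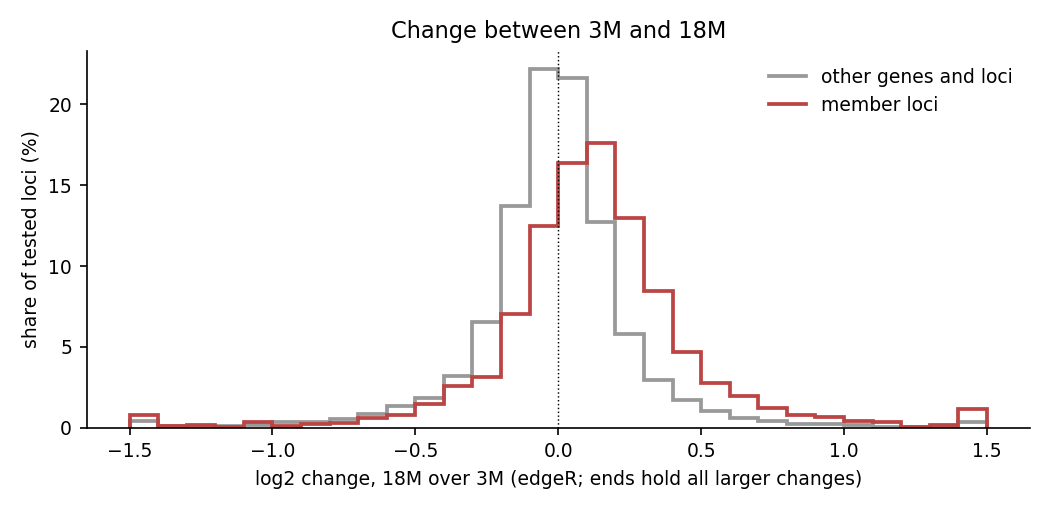
The horizontal axis is the edgeR log2 ratio of 18M over 3M, with the end steps holding all larger changes, and the vertical axis the percent of tested loci in each step of 0.1, for the 2800 member loci (red) and the other 19960 genes and loci (grey). The member curve is shifted to the right, with a median of 0.119 against -0.0087.

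Among the 12M mice, individual values differed by more than the shift of 0.119, and among the mice of each other age by less. Centred on the mean of the 12 libraries, the median log2 level of the member loci was -0.0036, -0.091 and -0.019 in the 3M mice. It was 0.0023, -0.013 and -0.052 in the 6M mice, and 0.026, -0.032 and 0.125 in the 12M mice. At 18M it was 0.020, 0.067 and 0.076. Values at 18M lay above all values at 3M, the lowest was that of 3M-2 and the highest that of 12M-3. Without 3M-2 the median change was 0.085 with 63.6% of loci higher, and without any other of the 6 libraries in turn it lay between 0.101 and 0.141.

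The summed levels of cell type markers are given beside these values. The summed level of 4 round spermatid markers (Acrv1, Spaca1, Tssk1, Catsper3) was lowest in 3M-2, at 625 CPM, and highest in 12M-3, at 867 CPM, and was 756 to 771 CPM in the other 3M mice, 744 to 788 CPM at 6M and 844 to 863 CPM at 18M. The sum of 5 markers of elongating spermatids (Prm1, Prm2, Tnp1, Tnp2, Odf1) was 13500 to 14900 CPM at 3M, 12600 to 14000 CPM at 6M, 14000 to 18600 CPM at 12M, with the highest value in 12M-3, and 14000 to 16700 CPM at 18M, so that 3M and 18M overlapped. None of the 4 round and 5 elongating spermatid markers was called in the slope on age. The sum of 7 Leydig cell markers was 870 to 1050 CPM at 3M and 551 to 760 CPM at 18M, and 3 of the 7 fell in the slope on age. Summed levels of 7 Sertoli markers (273 to 298 CPM at 3M, 285 to 303 at 18M), 6 spermatogonial markers (718 to 755 and 706 to 752), 5 spermatocyte markers (852 to 931 and 858 to 867), 4 peritubular myoid markers (65.0 to 79.9 and 49.1 to 68.8), 5 macrophage markers (25.8 to 28.8 and 20.4 to 32.7) and 3 endothelial markers (9.68 to 10.9 and 8.31 to 10.4) overlapped between these ages. Of the lists for other tissue and blood, 3 of 5 epididymal markers were below 0.1 CPM, and 3 of 4 red blood cell genes were in the table, at 14.0 to 23.6 CPM at 3M and 9.30 to 34.1 CPM at 18M. The part of cell composition in the change of the members was not tested, and in whole testis more RNA per cell and more cells of a type cannot be told apart.

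The median was positive on each autosome, on the X and on the Y, with the largest value of these on the Y. The median log2 change was 0.267 over the 114 Y-linked member loci tested, of which 83.3% were higher at 18M, 0.152 over 92 X-linked loci (77.2% higher) and 0.110 over 2593 autosomal loci (68.9% higher). Autosomal medians lay between 0.065 on chromosome 19 and 0.140 on chromosome 11. The summed level of the Y-linked members was 167 ± 12.3 FPKM (SD, n = 3) in 3M, 181 ± 6.36 in 6M, 197 ± 10.8 in 12M and 202 ± 4.07 in 18M mice, with 155 to 179 FPKM at 3M and 199 to 206 FPKM at 18M. Those of the X-linked members were 404 ± 28.8 FPKM at 3M and 445 ± 9.96 at 18M, from 373 to 431 and from 435 to 455 FPKM. The Y-linked median was 0.197 without 3M-2 and 0.374 without 3M-3. The sequences of Y-linked members were not compared with each other, so sharing of reads among Y-linked copies was not tested.

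**Figure D3:**
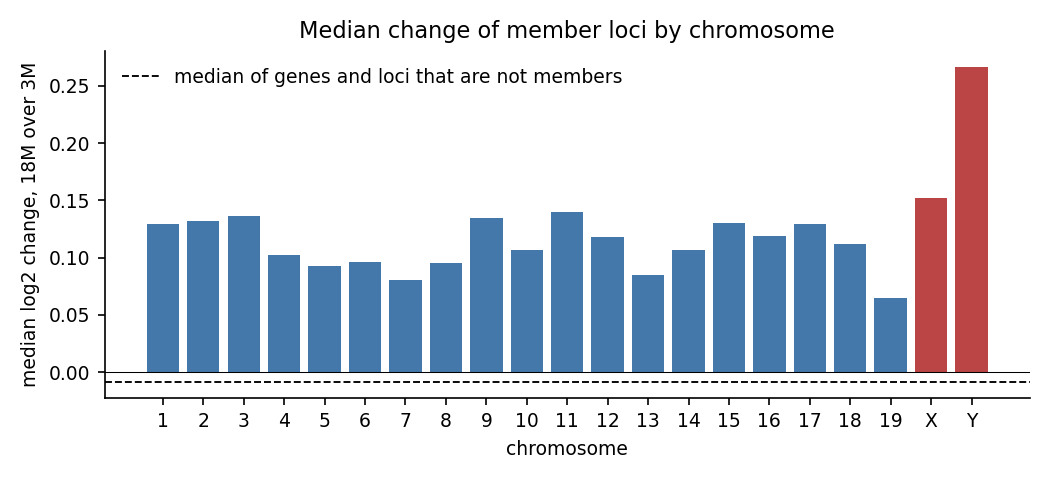
Bars give, for each chromosome on the horizontal axis, the median log2 ratio of 18M over 3M of its member loci (vertical axis, autosomes blue, X and Y red), and the dashed line the median of the genes and loci that are not members, at -0.0087. Every bar is above zero, and the Y chromosome stands highest at 0.267.

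By relation to GENCODE, the median change was 0.131 in loci whose highest member overlapped no gene, 0.146 in those inside a gene span, 0.105 in those with the introns of a GENCODE transcript, 0.110 in those sharing an intron, 0.112 in those with an exon overlap on the same strand and 0.067 in those on the opposite strand. By level, it was 0.133 in the 363 loci under 1 FPKM and 0.079 in the 136 loci at 10 FPKM or more. Among the 2645 member loci with a mean of 1 FPKM or more in at least 1 age, 290 (11%) had a higher mean at every step from 3M to 18M and 71 (2.68%) a lower one. The shares over all 18329 genes and loci at that level were 7.45% and 7.0%. Without 12M-3 the counts were 231 and 59.

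The slope on age in months called 6 of 2856 member loci, all rising (0.210%, against 0.214% of all 23311 genes and loci called, with 0.0686% rising). DESeq2 called 45 rising and 11 falling (1.96%, against 2.43% of all). At an unadjusted p of 0.05 or less, 289 member loci had a positive slope (10.1%, against 7.17% of all) and 48 a negative one (1.68%, against 8.64%). Single member transcripts had 0 calls among 5124 (0.0103% of all 58289 transcripts) by edgeR, with 273 at an unadjusted p of 0.05 or less (5.33%, against 7.15% of all), and DESeq2 called 49 (0.956%, against 1.28% of all).

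MSTRG.13243 (chr3:100417891-100421080, plus strand, 2 members with 3 exons) had the largest called difference between 3M and 18M. Its highest member overlapped no GENCODE gene. The locus began at the RefSeq gene Gm32471, whose window is shown above, and lay 71296 bp from the start of Fam46c, which codes for a poly(A) polymerase. Its level was 1.51, 1.42 and 1.48 CPM at 3M, 2.33, 3.33 and 4.41 CPM at 6M, 4.61, 4.44 and 6.43 CPM at 12M, and 7.1, 7.0 and 6.56 CPM at 18M. All mice of 18M lay above all younger mice, and all mice of 3M below all older ones. It rose between 3M and 18M by 2.23 ± 0.094 on the log2 scale (SE; adjusted p = 0.0024), and its slope was 0.131 ± 0.020 log2 units per month (adjusted p = 0.021). Its members MSTRG.13243.1 and MSTRG.13243.2 had means of 0.779 and 0.693 CPM at 3M and of 3.54 and 3.35 CPM at 18M, and neither passed the test alone (adjusted p = 0.53 and 0.52). Fam46c had means of 540 CPM at 3M and 552 CPM at 18M. Leaving out any 3M mouse, or 6M-1, 18M-2 or 18M-3, took the slope to adjusted p = 0.051 to 0.063, and the difference between 3M and 18M held without each library.

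MSTRG.22475 (chrY:6719911-6727485, minus strand), which shared an intron with the lincRNA Gm28444, had 0.133, 0.440 and 0.348 CPM at 3M, 0.808, 0.356 and 0.560 CPM at 6M, 1.3, 0.876 and 0.984 CPM at 12M, and 1.71, 1.85 and 1.71 CPM at 18M. The levels rest on 7 to 123 reads per library. The 18M mice stood above all others, and the 3M and 6M mice overlapped. Its slope was 0.158 ± 0.022 per month (adjusted p = 0.015), and the call was lost without 18M-2 (adjusted p = 0.062) or 18M-3 (0.060).

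MSTRG.20351 (chr8:120847827-120867117, minus strand, inside a GENCODE gene span, nearest mRNA start Irf8, a transcription factor of myeloid cells) had 4.33, 2.53 and 4.17 CPM at 3M, 4.73, 5.39 and 6.37 CPM at 6M, 6.20, 7.72 and 9.41 CPM at 12M, and 9.74, 10.1 and 8.02 CPM at 18M. The 3M mice lay below all others. Its slope was 0.084 ± 0.014 (adjusted p = 0.041), and of the leave-outs of 1 library only those of 3M-2, 6M-3, 12M-3 and 18M-1 kept the call. In the same libraries Irf8, whose start lay 128478 bp away, had means of 4.05 CPM at 3M and 2.82 CPM at 18M.

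MSTRG.21657 (chr9:124376722-124381297, minus strand, no GENCODE overlap) had 2.29, 2.62 and 1.82 CPM at 3M, 3.92, 3.68 and 3.26 CPM at 6M, 4.71, 4.70 and 4.73 CPM at 12M, and 6.72, 4.90 and 4.90 CPM at 18M. No mouse of 1 age overlapped with those of another. Its slope was 0.078 ± 0.013 (adjusted p = 0.036), and of the leave-outs of 1 library only those of 3M-3, 6M-1 and 12M-3 kept the call.

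MSTRG.3948 (chr11:118131894-118138298, minus strand), at the Gm38514 window and over an exon of Cyth1, which codes for an exchange factor of Arf GTPases, had 1.73, 2.04 and 2.07 CPM at 3M, 2.44, 2.42 and 2.8 CPM at 6M, 2.69, 2.44 and 3.06 CPM at 12M, and 3.16, 3.31 and 3.8 CPM at 18M. The 3M mice lay below and the 18M mice above all others, and the 6M and 12M mice overlapped. Its slope was 0.047 ± 0.0085 (adjusted p = 0.049), and of the leave-outs of 1 library only those of 6M-3 and 18M-1 kept the call.

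MSTRG.6520 (chr14:69461754-69503404, minus strand), with the introns of the coding gene Gm16867 printed above, was the sixth call and is given outside the naming rule. It had 14.1, 14.6 and 13.4 CPM at 3M, 14.6, 15.4 and 14.0 CPM at 6M, 15.7, 15.5 and 15.9 CPM at 12M, and 17.9, 17.0 and 18.7 CPM at 18M, with a slope of 0.022 ± 0.0037 (adjusted p = 0.036). Its change between 3M and 18M was 0.35 ± 0.074 on the log2 scale and did not pass the test (adjusted p = 0.34). Refits of the slope without 1 library could also call loci outside these 6. They gave 0 calls without 18M-2 and 0 without 18M-3, and 2 without each of 3M-1, 3M-3, 6M-1, 6M-2, 12M-1 and 12M-2. Without 18M-1 there were 9 calls, 6 rising and 3 falling. Without 3M-2 there were 3 rising and 1 falling.

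**Figure D4:**
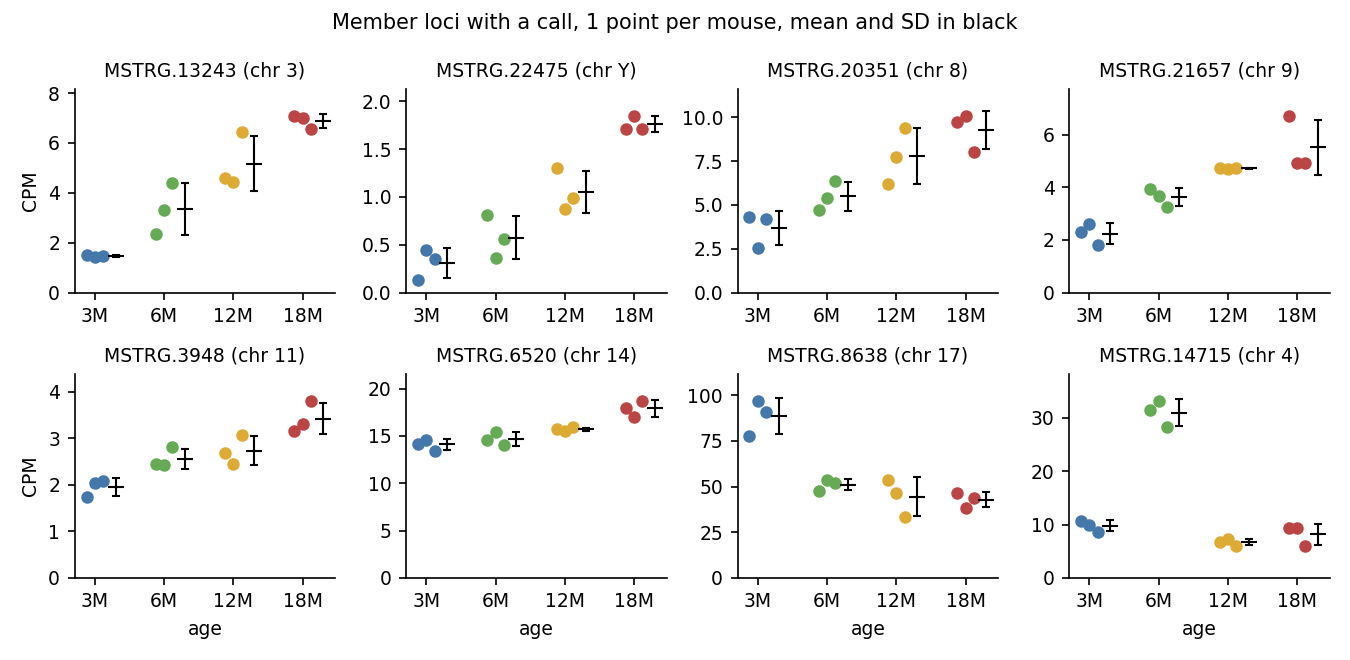
Each panel gives the CPM (vertical axis) of a member locus in the 3 mice of each age (horizontal axis, drawn evenly spaced), with the mean and SD in black. The first 6 panels are the loci with a slope on age, MSTRG.8638 was lower at 18M than at 3M, and MSTRG.14715 stood at 28.3 to 33.2 CPM at 6M and at 10.7 CPM or less at the other ages.

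Between 3M and 18M, 2 of 2800 member loci were called (0.0714%, against 0.0615% of all genes and loci). At an unadjusted p of 0.05 or less, 246 were higher at 18M (8.79%, against 5.7% of all) and 44 lower (1.57%, against 6.6%). The number called was 4 without 3M-1, 4 without 3M-2 and 6 without 18M-3, and DESeq2 called 16 (0.571%, against 0.321% of all). Beside MSTRG.13243, the other locus called by edgeR with all 6 libraries was MSTRG.8638 (chr17:22674058-22691499, plus strand, 7 members over the processed pseudogene AC098880.1). It had 77.5, 96.9 and 90.6 CPM at 3M, 47.6, 53.7 and 51.9 CPM at 6M, 53.8, 46.5 and 33.1 CPM at 12M, and 46.6, 38.3 and 43.5 CPM at 18M. The 3M mice stood above all older mice, and the later ages overlapped. It fell by 1.04 ± 0.11 on the log2 scale (adjusted p = 0.048), and the call was lost without 3M-2, 3M-3 or any 18M mouse (adjusted p = 0.070 to 0.15). MSTRG.6659 (chr14:82085873-82159425, sharing an intron with the lincRNA Gm49048) had 9.49, 9.09 and 10.7 CPM at 3M and 18.4, 19.0 and 20 CPM at 18M. Its log2 change of 0.97 ± 0.087 (adjusted p = 0.028) lay just below the required size of 1, and the 6M and 12M mice ranged from 9.60 to 20.6 CPM.

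Single member transcripts gave 3 calls between 3M and 18M among 4778 tested (0.0628%, against 0.108% of all 54472 transcripts, with 0.0661% lower), all lower at 18M. The count was 0 without 3M-1, 18M-1 or 18M-3 and 1 without 18M-2, and the direction did not hold in other fits. Without 3M-2 there were 2 higher and 1 lower, with all 12 libraries in the fit 1 higher and 0 lower, and DESeq2 called 40 higher and 30 lower (1.47%, against 1.73% of all). MSTRG.8638.2 had 24.9, 34.4 and 33.4 CPM at 3M and 0.095 to 0.803 CPM in each older mouse (log2 change -6.68 ± 0.52, adjusted p = 0.043). The summed locus also fell, by 1.04 on the log2 scale. MSTRG.15822.4 (chr5:106351501-106371758, over 4930458A03Rik and Gm42916, sharing an intron with at least 1 of them) had 15.4, 13.6 and 26.5 CPM at 3M and 0.035 to 0.042 CPM at 18M (log2 change -8.83 ± 0.42, adjusted p = 0.015). Its 12M mice had 16.6, 0 and 22.5 CPM. The 9 members of its locus together had 54.9 ± 8.05 CPM at 3M and 44.2 ± 4.20 CPM at 18M, while MSTRG.15822.9 of the same locus had means of 2.80 and 24.2 CPM (adjusted p = 0.16). MSTRG.13974.3 (chr4:47993019-48003402, sharing an intron with Gm12434) had 14.8, 11 and 13.3 CPM at 3M and 2.64, 2.17 and 2.70 CPM at 18M (log2 change -2.38 ± 0.19, adjusted p = 0.045), with the summed locus at 26.7 ± 2.06 and 28.6 ± 0.942 CPM. In all 3 loci the single transcript differed far more between the ages than the sum of its locus. How the assembler shared reads among overlapping transcripts was not tested.

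Between 3M and 6M, 3 of 2786 member loci were called (0.108%, against 0.0572% of all genes and loci), and between 6M and 12M, 3 of 2797 (0.107%, against 0.0264%). DESeq2 called 7 (0.251%, against 0.136% of all) and 9 (0.322%, against 0.18%). MSTRG.14715 and MSTRG.327 were called in both comparisons, which share the 6M mice. MSTRG.14715 (chr4:137062918-137118274, minus strand) lay over the lincRNAs 1700037C06Rik and Gm13001 and shared an intron with at least 1 of them. It had 10.7, 10 and 8.6 CPM at 3M, 31.5, 33.2 and 28.3 CPM at 6M, 6.79, 7.21 and 6.05 CPM at 12M and 9.27, 9.32 and 5.91 CPM at 18M. All 6M mice stood far above the mice of any other age. It rose from 3M to 6M by 1.67 ± 0.11 on the log2 scale (adjusted p = 0.0066) and fell from 6M to 12M by 2.22 ± 0.10 (adjusted p = 0.0016). Zbtb40, whose mRNA start was the nearest at 69579 bp, had means of 23.1, 21.3, 19.1 and 18.8 CPM.

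MSTRG.327 (chr1:58997106-59014238, minus strand, 3 members) lay over C2cd6b, at the end of a locus that also holds RefSeq Als2cr11, now called C2cd6, which codes for a protein of the sperm calcium channel complex. Its members had 300, 335 and 299 CPM at 3M, 74.5, 69.0 and 73.5 CPM at 6M, 315, 299 and 268 CPM at 12M, and 317, 309 and 319 CPM at 18M. The 6M mice lay below all others, with a fall from 3M to 6M by 2.10 ± 0.061 (adjusted p = 0.00017) and a rise from 6M to 12M of 2.02 ± 0.075 (adjusted p = 0.00081). On the scale of single transcripts, whose normalization factors differ slightly from those of loci, the other 5 transcripts of the locus had 334 ± 12.7 CPM at 3M and 598 ± 15.1 CPM at 6M. Among these, MSTRG.327.7, a 19-exon isoform of Als2cr11 that runs through the region of the members, had 78.5, 66.3 and 62.1 CPM at 3M and 400, 389 and 379 CPM at 6M. All 8 transcripts together had 646 ± 8.76 CPM in the 3M mice, 671 ± 15.1 in the 6M mice, 648 ± 38.4 in the 12M mice and 647 ± 26.8 in the 18M mice. With all transcripts summed the log2 changes were 0.063 and -0.051, and neither was called. The members and the other transcripts thus differed in opposite directions at 6M, and the sum differed little.

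**Figure D5:**
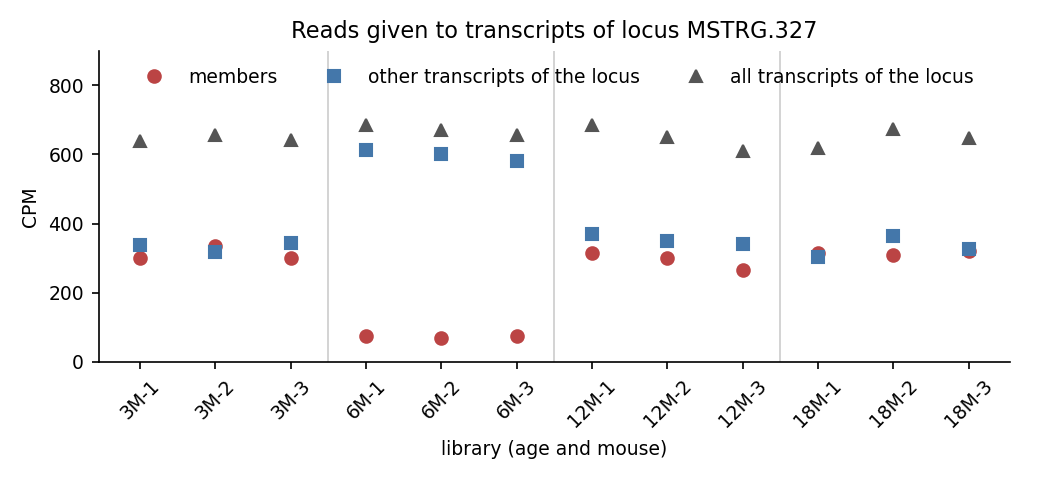
Points give the CPM (vertical axis) of the 3 members (red), the 5 other transcripts (blue) and all 8 transcripts (grey) of MSTRG.327 in each library (horizontal axis). On the transcript scale, the members stand in the 6M libraries at 68.7 to 74.2 CPM and the others at 582 to 612 CPM, while the sum stays between 609 and 686 CPM in all libraries.

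MSTRG.6896 (chr15:24949879-24982966, no GENCODE overlap of its highest member) had 0.724, 0.651 and 0.73 CPM at 3M, 2.39, 2.30 and 2.17 CPM at 6M, 1.20, 1.96 and 0.603 CPM at 12M and 2.74, 2.57 and 1.23 CPM at 18M. It rose from 3M to 6M by 1.70 ± 0.14 (adjusted p = 0.013), a call lost without any 1 of the 6 libraries (adjusted p = 0.054 to 0.068) and with all 12 libraries in the fit (adjusted p = 0.85). MSTRG.4943 (chr13:13890955-13897896, over the lincRNA Gm47882) was at 0 reads in all 6M mice and at 24.0, 37.2 and 36.9 CPM at 12M (adjusted p = 0.0081). It was also at 0 in 3M-2, 18M-1 and 18M-2 and at 41.4, 40.0 and 39.2 CPM in 3M-1, 3M-3 and 18M-3, so its reads were present or absent within an age, and with all 12 libraries in the fit the adjusted p was 0.48.

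Between 12M and 18M, 0 of 2809 member loci were called by edgeR (0.0219% of all genes and loci), with 141 at an unadjusted p of 0.05 or less (5.02%, against 3.53% of all), and DESeq2 called 8 (0.285%, against 0.127% of all). The smallest p-values among member loci were those of MSTRG.6886 (over the pseudogene Gm8341), with 3.22, 2.35 and 3.11 CPM at 12M and 0.141, 0.170 and 0.028 CPM at 18M (adjusted p = 0.081), MSTRG.15029, with means of 1.27 and 0.250 CPM (adjusted p = 0.10), and MSTRG.17099 (opposite to Gm19265), with 90.6, 94.7 and 79.8 CPM and 44.9, 51.8 and 57.4 CPM (adjusted p = 0.32). The ages did not overlap in these loci, and none passed the threshold. MSTRG.6886 and MSTRG.15029 were on average above 1 CPM at 12M and below it at 18M. MSTRG.6886 also varied within 3M, from 0.106 to 2.19 CPM.

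The spread between mice was larger for member loci than over all genes and loci, members included. The sets were not matched for level. At a mean of 1 CPM or more, the median SD of log2(CPM + 1) within ages was 0.158 over 2206 member loci and 0.121 over all 18952 genes and loci. For single transcripts it was 0.261 over 3645 members and 0.361 over all 46338. The correlation of log2(CPM + 1) between mice of 1 age, a description across loci, was 0.939 to 0.956 for member loci and 0.752 to 0.783 for member transcripts.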

How the data were processed

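Reads of 12 testis libraries were aligned by the authors with HISAT2 to mm10 and assembled and quantified with StringTie 1.3.3b against RefSeq. The deposited table gives estimated counts (made whole by the authors) and FPKM for each transcript, and deposited assemblies give exons. Counts, per transcript and summed per locus, were tested over the whole table with the quasi-likelihood test of edgeR 4.0.16 (TMM, filterByExpr, Benjamini-Hochberg). Slopes on age used all 12 libraries and pairs of ages 6. A call is an adjusted p of at most 0.05, for pairs with a log2 change of at least 1 in size. Fits were run on simulated counts with a fixed dispersion and changes only in features with higher counts, so changes at low counts were not covered. The outcome is not given here.

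Structures were compared with GENCODE vM21, and with RefSeq gene spans and promoter windows (GRCm38.p6). The GENCODE relation given for a named locus is that of its highest member. Intron ends and reading frames were not analysed here. Named are the 10 highest loci, up to 5 called each way per test (the 3 smallest p-values where fewer than 3 were called), loci with most members, transcripts with most exons, longest or called, and the 3 highest loci on X and Y. Members and lists were chosen with earlier results of these data known. Alternatives were other normalizations, filters and units, DESeq2 1.42.0, all libraries in a fit, a mouse-number block and leaving out each library. Depth leaves loci under 1 CPM with the least precision, and counts do not separate near-identical copies or strands.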

Additional observations from a re-analysis of the deposited data

How the results depend on the processing

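DESeq2 called more members in every comparison, as it did of all features: 49 transcripts instead of 0 in the slope on age and 70 instead of 3 between 3M and 18M, and 56 loci instead of 6 in the slope, 16 instead of 2 between 3M and 18M, 7 instead of 3 between 3M and 6M, 9 instead of 3 between 6M and 12M and 8 instead of 0 between 12M and 18M. Without the filter on low counts, 1 transcript and 1 locus were called between 3M and 18M, and with all 12 libraries in the fit 1 transcript and 4 loci. Leaving out 1 library gave 0 to 3 transcripts between 3M and 18M, and for loci 0 to 9 in the slope, 2 to 6 between 3M and 18M, 2 to 6 between 3M and 6M, 3 to 6 between 6M and 12M and 0 to 2 between 12M and 18M. The cause of these differences was not tested.

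With all transcripts of the locus summed, the changes of MSTRG.327 turned to 0.063 (3M to 6M) and -0.051 (6M to 12M). A minimum of 2 FPKM left 219 loci changing in 1 direction at every step (361 at a minimum of 1) and 1171 members at that level, and 1503 members reached 1 FPKM in every library. Members took 2.65% of reads, and all transcripts of their loci 3.97%. The median FPKM of a library was 1.16 on average, 1.37 for members read in every library and 1.75 per locus. Alternatives for the median change were chosen after seeing the data. Leaving out 1 library moved the median of member loci between -0.0122 (without 3M-2) and 0.0448 from 3M to 6M, between 0.0147 (without 12M-3) and 0.122 from 6M to 12M, and between -0.0253 (without 12M-2) and 0.0719 (without 12M-3) from 12M to 18M, where it was -0.00921 without 18M-3. Leaving out 1 library moved that of Y-linked loci between 0.197 (without 3M-2) and 0.374 (without 3M-3).

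No pairing by mouse number was seen: deviations of same-numbered mice correlated at -0.0408 to 0.0803 over loci, and those of differently numbered mice at -0.0896 to 0.0769. These low correlations do not exclude a pairing. With the number as a block, 0 transcripts and 0 loci were called between 3M and 18M, 2 loci in the slope, 1 between 3M and 6M and 2 between 6M and 12M.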
